A study of Mus musculus with 4 samples.

Results

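Radial glia and neural stem markers were followed in mouse retinal organoids at day 6 through 9 genes chosen by name, among 55426 rows of the deposited expression table. The 9 genes are Fabp5, Fabp7, Slc1a3, Nes, Vim, Prom1, Hopx, Tnc and Ptprz1, and each matched 1 row by its symbol. Such organoids are pluripotent cell aggregates steered in culture towards retinal progenitors. The 4 libraries are poly(A)-selected RNA from organoids of a single line, and all 4 carry an Rx:GFP reporter, a Mettl3 knockout and a Dox-inducible HA-METTL3. METTL3 is an RNA methyltransferase that places N6-methyladenosine, mainly in messenger RNA. The groups are 2 untreated libraries and 2 libraries treated with doxycycline (Dox) at 2 µg/ml for 6 days. Every title also holds the letters EV, which the labels do not explain, and the labels do not say whether the line is 1 clone or which promoter drives the inducible copy. The labels' protocol describes independent library preparation and sequencing for the duplicates but does not say that they came from separate cultures, so p-values measure the spread between libraries, which may be technical.

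Radial glia are the stem cells of the developing neural tube. They descend from neuroepithelial cells, span the wall from its inner to its outer surface, and are recognised by a shared set of filament, lipid-binding, transporter and surface proteins. Early retinal progenitors are neuroepithelial cells that also carry Nes and Vim, and Müller glia, the radial glia of the mature retina, later carry Vim and Slc1a3. The 9 genes were proposed with the difference between Dox and untreated libraries already known, so that difference is described for each of them and no p-value is attached to it.

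As a check of the labels, Mettl3 stood at 40.33 and 37.98 FPKM without Dox and at 45.2 and 46.37 FPKM with Dox, where FPKM counts fragments per kilobase of transcript, scaled to library depth. The gene-level value does not separate the inducible copy from the knocked-out locus, so these values do not show whether METTL3 was induced. The table's eGFP row stood at 0.26 and 0.42 FPKM without Dox and at 333.52 and 361.13 FPKM with Dox. All 5 retinal progenitor markers reported (Rax, Six3, Six6, Lhx2 and Hmx1) rose with Dox in limma, and their summed level was 32.27 to 35.68 FPKM untreated and 682.62 to 805.13 FPKM with Dox. Six6 (0.01 FPKM in both libraries) and Hmx1 (0.13 and 0.09 FPKM) were at or near 0 without Dox, so the untreated libraries lacked these defining markers of the labelled tissue. The fitted depth was 31700000 to 34900000 fragments per library. In bulk RNA, fewer cells of a type and less RNA per cell cannot be told apart, here and in every result that follows.

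The 9 genes did not move together. Fabp7 was 13.0-fold lower in the mean of the Dox libraries, Nes was 2.25-fold lower and Vim was 1.96-fold lower. Hopx was 3.56-fold higher and Ptprz1 2.94-fold higher. Fabp5, Slc1a3 and Prom1 differed by no more than 1.15-fold, and Tnc was below the level at which genes were tested. Of the 8 members with a mean of at least 1 FPKM, 3 were lower and 2 higher under the call rule used for all genes (limma, Benjamini-Hochberg adjusted p below 0.05), a rule that 4.87% of the 13931 tested genes met in the lower and 4.44% in the higher direction (9.31% in either). Nothing is read from that count, since the same contrast was in view when the members were chosen. The median log2 fold change of the 9 was 0.094, which is the value of Tnc, a gene below the filter. Over the 8 tested members the median was -0.0056, beside -0.0042 over all tested genes. The median of the 9 lies between members at -3.49 and members at 1.37. Its sign rests on the inclusion of Tnc and on Dox replicate 1, without which it was -0.11. It was 0.047 with Dox replicate 2 left out and 0.035 with untreated replicate 2 left out.

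**Figure D1:**
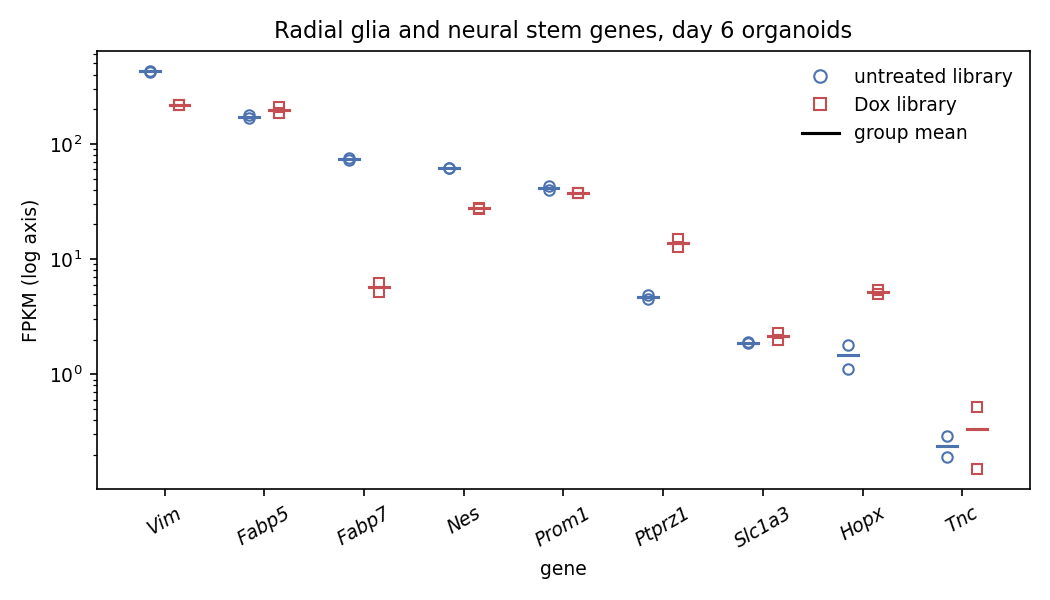
FPKM on a log axis for each of the 9 genes, ordered by their untreated level, with untreated libraries as circles, Dox libraries as squares and group means as short lines. Fabp7 drops from 74.1 to 5.70 FPKM in the group means, while Prom1 and Fabp5 keep nearly the same height.

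The upstream sequences of members at both ends of this range are shown because these genes differed most between the groups. RefSeq promoter windows (GRCm38.p6, 250 bases before to 50 after a start) matched 8 of the 9 members, all but Fabp5. The lines give the bases before the first annotated exon base, 5′ to 3′ on the gene's strand, for Fabp7 at chr10:57784673-57784880 (+), Nes at chr3:87970843-87971077 (+), the upstream start of Hopx at chr5:77115124-77115373 (-) and Ptprz1 at chr6:22875252-22875501 (+). Capitals mark matches on either strand to any of 7 motifs. The Notch effector RBPJ is represented by TGGGAA and the POU octamer by ATGCAAAT. The SOX core was searched as AACAAT and the homeodomain core as TAATTA. The basal elements were the TATA box with the letters TATAAA, the box named CCAAT after its letters, and the GC box with GGGCGG.
Fabp7: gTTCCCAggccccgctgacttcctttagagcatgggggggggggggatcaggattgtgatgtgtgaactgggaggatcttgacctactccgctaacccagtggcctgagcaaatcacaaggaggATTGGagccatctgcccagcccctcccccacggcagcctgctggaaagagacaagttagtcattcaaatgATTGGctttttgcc
Nes: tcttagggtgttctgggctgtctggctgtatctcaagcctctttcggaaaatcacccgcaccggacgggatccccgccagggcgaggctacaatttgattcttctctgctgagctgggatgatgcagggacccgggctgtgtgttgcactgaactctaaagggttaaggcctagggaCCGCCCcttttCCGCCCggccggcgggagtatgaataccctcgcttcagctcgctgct
Hopx: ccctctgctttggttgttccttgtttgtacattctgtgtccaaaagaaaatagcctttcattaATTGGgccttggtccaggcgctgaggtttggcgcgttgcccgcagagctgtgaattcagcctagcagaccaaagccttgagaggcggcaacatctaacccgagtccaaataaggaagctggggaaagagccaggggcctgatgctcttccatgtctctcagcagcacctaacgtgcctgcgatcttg
Ptprz1: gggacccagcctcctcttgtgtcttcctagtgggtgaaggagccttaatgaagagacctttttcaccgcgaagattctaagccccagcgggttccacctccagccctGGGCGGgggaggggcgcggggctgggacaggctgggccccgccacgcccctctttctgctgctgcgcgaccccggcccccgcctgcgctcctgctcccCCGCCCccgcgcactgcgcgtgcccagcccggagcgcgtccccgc
The Fabp7 window holds 1 RBPJ match and 2 CCAAT matches, the Hopx window 1 CCAAT match, and the Nes and Ptprz1 windows 2 GC-box matches each. No matches overlapped. None of the 4 windows holds the octamer, SOX, homeodomain or TATA letters. Such matches are common: among all 32851 RefSeq windows, of 300 bases each, 25.6% hold the RBPJ letters, 37.4% a CCAAT box and 35.7% a GC box. The octamer is in 1.74% of them, the SOX core in 10.7%, the homeodomain core in 5.29% and the TATA box in 13.6%. Among the other members, the octamer letters occur in both Tnc windows, which overlap and share the same match. The 4 windows shown also differ in CpG content, with 6 CpG dinucleotides for Fabp7, 8 for Hopx, 18 for Nes and 29 for Ptprz1. The median over all windows is 7. A second Hopx window, at a start further downstream, is not shown. It holds 1 SOX match, 1 CCAAT match and 21 CpG dinucleotides.

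Fabp7, also called brain lipid-binding protein, carries long-chain fatty acids in radial glia and is a known Notch-responsive gene. Fabp7 (ENSMUSG00000019874, GRCm38 chr10:57784881-57788450) stood at 73.08 and 75.09 FPKM without Dox and at 5.18 and 6.22 FPKM with Dox. Both Dox libraries lay far below both untreated ones. The means were 74.1 ± 1.42 and 5.70 ± 0.735 FPKM (SD, n = 2 each), and the log2 fold change on the log2(FPKM + 1) scale was -3.49 (limma SE 0.0973). Only 0.0718% of the tested genes had a lower fold change. Without Dox the level of Fabp7 exceeded that of 87.6% of tested genes, and with Dox that of 28.4%. The longest coding transcript of Fabp7 has 880 nt. At that full length, the fitted depth gives about 2084 and 2306 fragments without Dox and 145 and 179 with Dox. The depth fit itself took 240 nt off each length. These counts, like those of other members below, are therefore higher than the fit implies, most of all for short transcripts.

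Fabp5, a relative of Fabp7 that is widely expressed in progenitors and epithelia, did not follow it. Fabp5 (ENSMUSG00000027533, chr3:10012548-10016607) stood at 167.91 and 176.54 FPKM without Dox and at 211.1 and 183.91 FPKM with Dox. The groups did not overlap, but the nearest libraries of the groups were closer to each other than the Dox replicates were. The log2 fold change was 0.19 (SE 0.0890). Within a library, Fabp5 exceeded Fabp7 2.30-fold and 2.35-fold without Dox, and 40.8-fold and 29.6-fold with Dox. Fabp7 made up 28.5% and 28.3% of the summed FPKM of the 10 fatty-acid binding genes (the Fabp genes and Pmp2) without Dox, and 2.17% and 2.94% with Dox. The sum itself moved less, from 261.1 ± 6.35 to 225.4 ± 19.4 FPKM (SD, n = 2 each). Fabp5 supplied 65.4% to 66.5% of it without Dox and 86.9% to 88.3% with Dox.

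Of 12 other fatty-acid and retinoid binding genes of the family, 3 were tested, of which 2 rose and 1 fell in limma. The retinoic acid carrier Crabp1 rose from 65.2 and 71.65 to 323.97 and 339.46 FPKM. Crabp2 fell by 0.61 and Fabp3 rose by 0.55 on the log2 scale, with less stable calls. The call of Crabp2 was lost when the filter was dropped, with a replicate term, or when untreated replicate 1, untreated replicate 2 or Dox replicate 2 was omitted (adjusted p from 0.0833 to 0.198 in limma). That of Fabp3 was lost when the filter was dropped or any single library was omitted (0.0622 to 0.122). Fabp7 had a lower fold change than Fabp5 and each of these 3 genes. Fabp1, Fabp2, Fabp4, Fabp6, Fabp9, Fabp12 and Pmp2 were at 0 in all 4 libraries, and Rbp2 and Rbp7 did not exceed 0.57 FPKM.

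**Figure D2:**
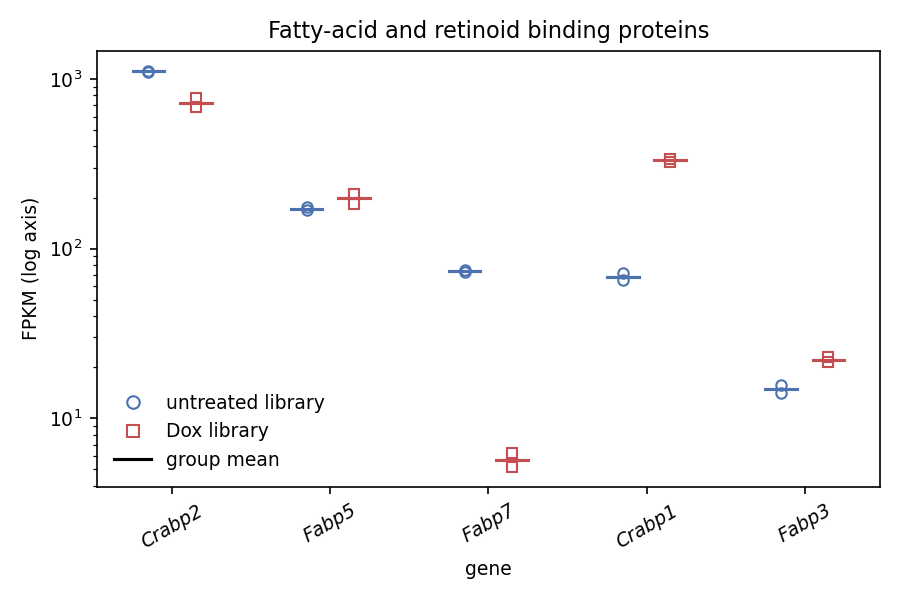
FPKM on a log axis for Fabp5, Fabp7 and the 3 tested relatives, with untreated libraries as circles, Dox libraries as squares and group means as short lines. Fabp7 has the widest gap downwards, from 74.1 to 5.70 FPKM, while Crabp1 shows a wide gap upwards.

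The intermediate filament genes Nes and Vim were both lower with Dox. Nestin is a large filament protein of dividing neural progenitors that assembles together with vimentin. Nes (ENSMUSG00000004891, chr3:87971078-87980451) stood at 62.28 and 61.88 FPKM without Dox and at 27.17 and 28.01 FPKM with Dox. The replicates nearly coincided in each group, with coefficients of variation of 0.456% and 2.15%, and the groups were far apart. The log2 fold change was -1.14 (SE 0.0637), and 1.78% of the tested genes had a lower one. The level of Nes exceeded that of 85.0% of tested genes without Dox and of 68.4% with Dox.

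Vim (ENSMUSG00000026728, chr2:13573927-13582826), the filament gene of neuroepithelium, glia and mesenchyme, stood at 423.4 and 432.37 FPKM without Dox and at 217.22 and 219.42 FPKM with Dox. Vim had the highest level of the 9 genes in each library, above 98.0% of tested genes without Dox and 96.2% with Dox. Its log2 fold change was -0.97 (SE 0.0673). The ratio of Vim to Nes was 6.80 and 6.99 without Dox and 7.99 and 7.83 with Dox, so the filament genes kept a similar proportion, with slightly less Nes per Vim in the Dox libraries. Vim alone made up 54.7% and 54.2% of the summed FPKM of the 9 genes without Dox and 41.9% and 44.1% with Dox. That sum was 785.9 ± 15.9 FPKM without Dox and 508.2 ± 14.5 FPKM with Dox (SD, n = 2 each), and most of its difference came from Vim. Mesenchyme also expresses Vim, and the 7 mesenchyme markers summed to 14.96 and 12.56 FPKM without Dox and 23.7 and 20.62 FPKM with Dox. The higher sum came from Col1a2, which rose from 2.46 and 1.93 to 12.21 and 12.02 FPKM: the other 6 markers summed to 12.50 and 10.63 FPKM without Dox and 11.49 and 8.60 FPKM with Dox, and the part of mesenchyme in the difference of Vim was not tested.

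Of the other 14 intermediate filament genes, 11 were tested, 3 fell and 0 rose in limma (1, Lmna, was higher at an unadjusted p of 0.0191), with a median log2 fold change of 0.035. Those that fell, Nefm (-1.24), Ina (-1.24) and Nefl (-1.13), encode filaments of neurons, with adjusted p-values between 0.00204 and 0.00349 in limma. Gfap, the filament of mature astrocytes and of reactive Müller glia, did not exceed 0.12 FPKM.

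The transporter Slc1a3 was low and differed little. It encodes GLAST, which clears glutamate and marks radial glia once neurogenesis is under way. Slc1a3 (ENSMUSG00000005360, chr15:8634124-8710764) stood at 1.86 and 1.91 FPKM without Dox and at 1.98 and 2.30 FPKM with Dox. These values correspond to about 251, 278, 261 and 313 fragments over a 4163 nt transcript. The log2 fold change was 0.12 (SE 0.126), smaller than its error, and the level exceeded that of 9.86% of tested genes without Dox and 11.6% with Dox. Slc1a2, the other glial glutamate transporter, was lower still, at 1.23 and 1.26 FPKM without Dox and 0.59 FPKM in both Dox libraries. Of the 6 relatives of Slc1a3 listed, 3 were tested, and 1 rose and 0 fell in limma (1, Slc1a5, was lower at an unadjusted p of 0.0182). The gene that rose, Slc1a6, differed by 0.66 on the log2 scale (limma adjusted p = 0.0410), a call lost when any single library was omitted (0.0738 to 0.174), without the filter (0.137), with TPM (0.0545) or with a replicate term (0.0550).

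Prom1 encodes prominin-1 (CD133), a protein of apical membrane protrusions in neuroepithelium and later of photoreceptor discs. Prom1 (ENSMUSG00000029086, chr5:43993620-44102032) stood at 39.55 and 43.11 FPKM without Dox and at 37.64 and 37.57 FPKM with Dox. Both Dox libraries were lower, but the gap between the nearest libraries was smaller than the gap between the untreated replicates. The log2 fold change was -0.13 (SE 0.0726). Relative to Nes in the same library, Prom1 stood at 0.635 and 0.697 without Dox and at 1.39 and 1.34 with Dox, so the apical marker passed the filament marker in level.

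Hopx and Ptprz1, both used as markers of outer radial glia in the cortex, were higher with Dox. Hopx encodes a small homeodomain protein that does not bind DNA by itself. Hopx (ENSMUSG00000059325, chr5:77086988-77115121) stood at 1.81 and 1.12 FPKM without Dox and at 5.00 and 5.43 FPKM with Dox. The groups were clearly apart, although the untreated replicates varied by a coefficient of variation of 33.3%. The values correspond to about 74 and 49 fragments without Dox and 200 and 224 with Dox. That holds if all came from the longest coding transcript, taken at its full 1261 nt. The log2 fold change was 1.35 (SE 0.167). Hopx no longer met the call rule without Dox replicate 1 (log2 fold change 1.40), without Dox replicate 2 (1.30) or without the filter on low values (1.35). Its level exceeded that of 6.34% of tested genes without Dox and 26.8% with Dox.

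Ptprz1 encodes a receptor-type tyrosine phosphatase, a chondroitin sulphate proteoglycan that binds pleiotrophin, midkine, contactin-1 and tenascins. Ptprz1 (ENSMUSG00000068748, chr6:22875502-23052916) stood at 4.49 and 4.88 FPKM without Dox and at 12.63 and 14.93 FPKM with Dox. Each Dox library lay well above both untreated libraries. The log2 fold change was 1.37 (SE 0.114), above that of 98.8% of the tested genes. Its level exceeded that of 24.9% of tested genes without Dox and 48.9% with Dox.

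Tnc, the matrix protein tenascin-C of neurogenic niches, was scarce. Tnc (ENSMUSG00000028364, chr4:63959785-64047015) stood at 0.29 and 0.19 FPKM without Dox and at 0.52 and 0.15 FPKM with Dox. It was the only member whose groups overlapped, and the Dox replicates enclosed the untreated ones. The values correspond to about 67, 47, 117 and 35 fragments over a 7106 nt transcript. The spread between the Dox replicates exceeded the difference of the means, so no difference was detectable. Among the members, 4 had both Dox libraries below and 4 both above the untreated ones, patterns held by 26.9% and 26.5% of tested genes (53.4% together).

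Of 18 listed binding partners and matrix relatives of Tnc and Ptprz1, 11 were tested, 1 rose and 2 fell in limma (median log2 fold change -0.13). Pleiotrophin (Ptn), a secreted ligand of Ptprz1, fell from 166.8 and 165.91 to 105.03 and 100.85 FPKM (log2 fold change -0.69, adjusted p = 0.00251), so ligand and receptor differed in direction. Midkine (Mdk), the related ligand, was at 1063.8 and 1072.02 FPKM without Dox and at 1260.73 and 1240.26 FPKM with Dox, which did not pass (log2 fold change 0.23, adjusted p = 0.201). The adhesion molecule Nrcam rose from 5.38 and 5.88 to 17.24 and 17.83 FPKM (log2 fold change 1.48, adjusted p = 0.000610 in limma). The other gene that fell, Nfasc, did not pass without the filter or when any single library was omitted (adjusted p from 0.0614 to 0.114).

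**Figure D3:**
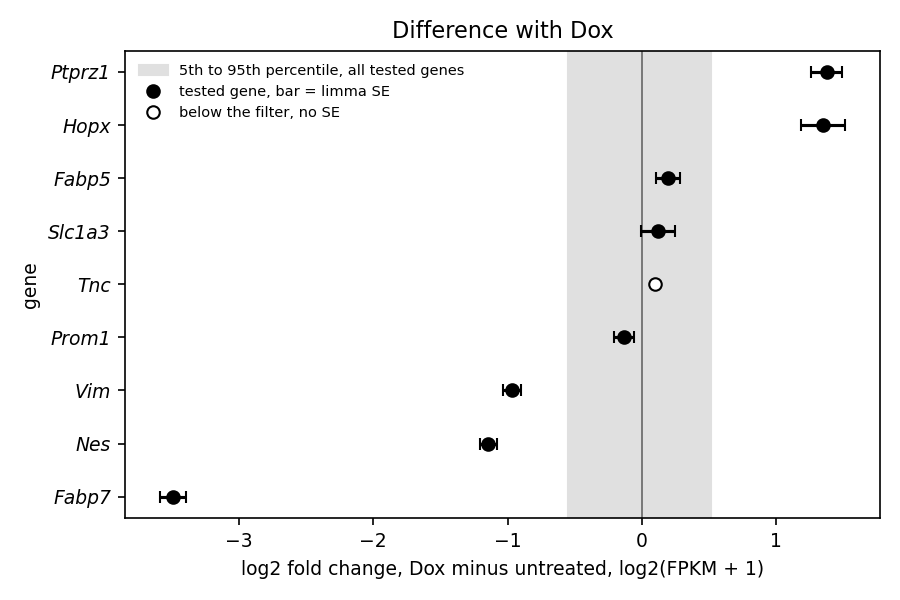
Log2 fold change of each of the 9 genes (points) with its limma standard error (bars), on the log2(FPKM + 1) scale, where positive values are higher with Dox. The grey band spans the 5th to 95th percentile of all tested genes, -0.55 to 0.51: Fabp7, Nes and Vim lie below it, Hopx and Ptprz1 above it, and the open point is Tnc, which was below the filter.

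The order of the levels, which FPKM allows because it is scaled to length, changed between the groups. Without Dox it ran from Vim (427.9 ± 6.34 FPKM) through Fabp5 (172.2 ± 6.10), Fabp7 (74.1 ± 1.42), Nes (62.1 ± 0.283), Prom1 (41.3 ± 2.52), Ptprz1 (4.69 ± 0.276), Slc1a3 (1.89 ± 0.0354) and Hopx (1.47 ± 0.488) to Tnc (0.240 ± 0.0707), as mean ± SD with n = 2. In that order no neighbours had overlapping libraries. With Dox, Vim (218.3 ± 1.56 FPKM) and Fabp5 (197.5 ± 19.2) were followed by Prom1 (37.6 ± 0.0495), Nes (27.6 ± 0.594), Ptprz1 (13.8 ± 1.63), Fabp7 (5.70 ± 0.735), Hopx (5.22 ± 0.304), Slc1a3 (2.14 ± 0.226) and Tnc (0.335 ± 0.262). Fabp7 went from the third to the sixth place, where its libraries overlapped those of Hopx. Vim and Fabp5 stood 2.48-fold apart without Dox and 1.11-fold apart with Dox, where the gap of the means was close to the spread of Fabp5.

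The transcripts of the 9 genes were also compared in length and in the letters GGACT, a form of the motif in which METTL3 is known to methylate adenosine. The longest coding transcripts ran from 880 nt (Fabp7) to 8068 nt (Ptprz1). On the sense strand, GGACT occurred 1.14 times per kb in Fabp7 (1 match), 1.80 in Nes (11) and 0.912 in Vim (2), which were lower with Dox. It occurred 0.793 times per kb in Hopx (1 match) and 0.868 in Ptprz1 (7), which were higher. The density was 1.01 in Fabp5 (1 match) and 0.721 in Slc1a3 (3), the lowest of the 9. The median was 1.01 over 13918 tested genes with a sequence. With 1 match each, Fabp7, Hopx and Fabp5 differ in density only through transcript length. Prom1 (1.96 per kb) and Tnc (2.39 per kb) had the highest densities of the 9. These are letter counts and not methylated sites, and methylation was not analysed here. Exons of Tnc, Prom1 and Hopx overlap those of a gene on the opposite strand (8030451A03Rik, Gm16401 and Hopxos), whose values did not exceed 0.53 FPKM.

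Among 30 further genes of radial glia and neural stem cells, 26 were tested, and 6 rose and 10 fell in limma, with a median log2 fold change of -0.20. Under the same rule 4.44% of all tested genes rose and 4.87% fell. This list too was chosen with earlier results of these data known, so its directions are no independent check on those of the members. Id4, an inhibitor of bHLH factors, fell from 21.14 and 23.89 to 4.25 and 3.44 FPKM (log2 fold change -2.28). Sox1, a neuroectoderm factor, fell from 27.37 and 25.73 to 5.53 and 5.17 FPKM (-2.12), and the surface glycoprotein Pdpn from 30.99 and 33.28 to 8.21 and 7.75 FPKM (-1.88). Cdon, a co-receptor of Hedgehog ligands, rose from 14.44 and 13.07 to 35.18 and 42.76 FPKM (1.43). The highest adjusted p among these 4 was 0.00151 in limma, while Dbi (0.023, adjusted p = 0.892) and Pax6 (0.040, adjusted p = 0.796) did not pass. Fewer genes of this list rose, and fewer fell, when any single library was left out. Without the filter on low values 3 rose and 7 fell.

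**Figure D4:**
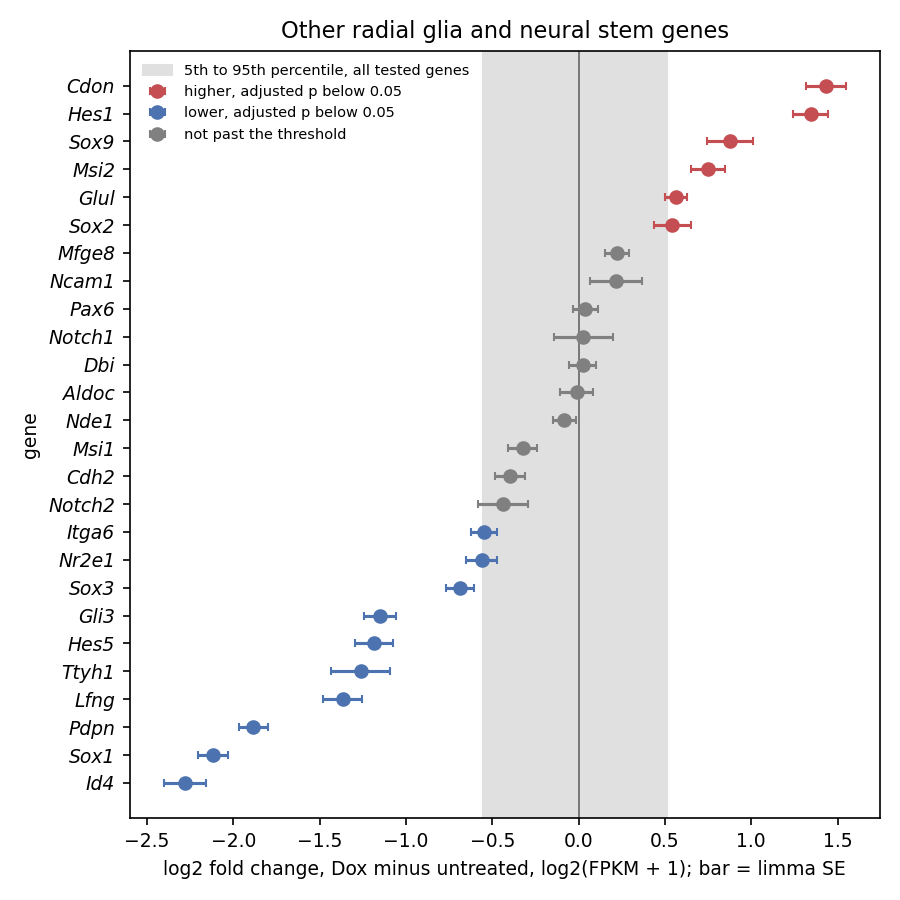
Log2 fold change (points) and limma standard error (bars) of the 26 tested radial glia and neural stem genes outside the 9, on the log2(FPKM + 1) scale, where positive values are higher with Dox. Red points rose, blue points fell and grey points did not pass an adjusted p of 0.05, and the grey band spans the 5th to 95th percentile of all tested genes.

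Of 10 further genes listed for outer radial glia, 7 were tested, and 1 rose, 2 fell and 4 did not pass. The growth factor gene Pdgfd rose from 1.38 and 1.57 to 4.30 and 4.38 FPKM (adjusted p = 0.00390 in limma), and the integrin gene Itgb5 fell from 28.83 and 24.84 to 9.38 and 7.79 FPKM (adjusted p = 0.00140). The other gene that fell, Moxd1, did not pass without the filter, untreated replicate 1, untreated replicate 2 or Dox replicate 2 (adjusted p from 0.0718 to 0.0896).

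Markers of other cell types moved in the same libraries, and their part in the differences of the 9 genes was not tested. Of 8 neuron markers 5 were tested and all 5 fell. Elavl3 did not pass without Dox replicate 1 (log2 fold change -1.14) or Dox replicate 2 (-1.22). The list summed to 150.45 and 147.84 FPKM without Dox and 82.74 and 86.55 FPKM with Dox. Most of that was Tubb3, at 118.53 and 116.78 FPKM without Dox and 75.76 and 79.83 FPKM with Dox. Tubb3 was 1.51-fold lower in the means, while Map2, Stmn2, Elavl4 and Elavl3 were 4.14-fold to 6.72-fold lower. Of 6 oligodendrocyte lineage markers, which neural crest cells share in part, 4 were tested, 2 fell and 1 rose (Pdgfra, lost without the filter, untreated replicate 1, Dox replicate 1 or Dox replicate 2 at 0.0688 to 0.0835), and the list summed to 23.21 and 22.23 FPKM without Dox and 5.86 and 5.88 FPKM with Dox. Sox10, the highest of them without Dox, fell from 12.79 and 13.35 to 0.82 and 0.43 FPKM. Of 7 Müller glia markers 3 were tested and 2 rose. The list summed to 100.58 and 96.18 FPKM without Dox and 146.04 and 144.14 FPKM with Dox, nearly all of it from Glul. Glul also belongs to the list of further radial glia genes. Abca8a was at 0, and Aqp4, below the filter, was lower with Dox (0.14 and 0.21 FPKM) than without (0.50 and 0.62 FPKM). Of the 2 that rose, Glul did not pass without untreated replicate 2 (adjusted p = 0.0676 in limma) or Dox replicate 2 (0.0504). Car2 did not pass when any single library was omitted, without the filter, with TPM or with a replicate term (0.0563 to 0.196). Of 7 mesenchyme markers 5 were tested and 1 rose (Col1a2). Of 6 endothelial and blood markers only Kdr, which retinal progenitors also express, was tested. It rose from 0.22 and 0.25 to 13.91 and 17.63 FPKM. Below the filter, Cdh5 stood at 0.05 and 0.01 FPKM without Dox and at 0.43 and 0.61 FPKM with Dox. Pecam1 overlapped between the groups (0.63 and 0.53, then 0.62 and 0.89 FPKM), Aif1 and Ptprc did not exceed 0.12 FPKM and Hbb-bt was at 0. The list summed to 0.90 and 0.84 FPKM without Dox and 15.08 and 19.21 FPKM with Dox. None of the 6 astrocyte markers passed the filter, and their highest value was 1.26 FPKM, for Slc1a2.

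The genes whose pattern was most like that of Fabp7 and of Ptprz1 were sought among tested genes outside the members. Predicted, clone-named and pseudogene entries were left out. Likeness was the Euclidean distance between log2(FPKM + 1) profiles, each centred over the 4 libraries. Nearest to Fabp7 were Rspo2 (distance 0.184) and Rspo3 (0.229), genes of secreted Wnt enhancers, and Pou3f3 (0.327), a neural POU factor. Nearest to Ptprz1 were Dpf3 (0.0519), a chromatin remodelling subunit, Etl4 (0.0621) and the bHLH factor Atoh8 (0.113). Rspo2 was also near Fabp7 in level, at 67.66 and 70.34 FPKM without Dox and at 4.59 and 4.77 FPKM with Dox. Pou3f3 was lower, at 17.96 and 18.01 FPKM without Dox and at 1.06 and 0.98 FPKM with Dox, and Etl4 stood below Ptprz1, at 1.97 and 2.30 FPKM and at 6.45 and 7.42 FPKM.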

How the data were processed

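Expression was measured by paired-end, poly(A)-selected RNA sequencing of 4 libraries, grouped by their treatment label. The authors deposited FPKM values, rounded, with a column for each library. STAR, Cuffdiff and mm10 are named without role or version in the submitters' processing notes. The annotation and strand setting are not given in the sources used here. FPKM is not a count, so log2(FPKM + 1) was fitted with limma 3.58.1 in R 4.3.3 (lmFit, eBayes with trend, two-sided, no covariate) for 13931 genes, those averaging 1 FPKM or more, with Benjamini-Hochberg adjustment over all of them and a threshold of 0.05. The fit was tested on simulated data. Fold changes on this scale understate the change of low genes. For a single gene, 2 libraries against 2 allow no exact two-sided permutation p below 0.333. Members and gene lists were chosen with earlier results of these data known. Genes named outside the members come from the fixed lists: per list up to 4 called genes with the largest change, up to 2 uncalled genes with the highest level, and any gene of a list of 6 or fewer. A pair of listed genes is not reported here. The rule also covers Mettl3, the retinal progenitor markers, and genes near in pattern to the members with the lowest and the highest fold change. For each of those members these are the 3 nearest genes, with other members and predicted, clone-named or pseudogene entries left out. Lmna, Gfap, Slc1a2, Tubb3, eGFP, the genes on the opposite strand and genes at or near 0 were named after their values were seen. Lengths, positions and transcript sequences came from GENCODE M21 (GRCm38, the same assembly as mm10).

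Depth was fitted with Python 3.11.15 from low FPKM values of single-transcript genes of 450 to 1200 nt, which move in steps of 1 fragment. Of values below 0.5 FPKM, 89.4% to 90.7% came out whole within 0.2 fragments, against 40% by chance. A reduction of each length by 240 nt was fitted along with the depth. It was not applied to the fragment counts of the members. Tried as alternatives were pseudocounts of 0.1 and 5, dropping the filter or raising it to 5 FPKM, scaling each library to the same total (TPM), centring on the median, eBayes without the trend, a term for the replicate number, and the omission of each library. Omitting a library leaves another alone in its group, and limma then assumes that it varies like the others.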

Additional observations from a re-analysis of the deposited data

How the results depend on the processing

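All 4 libraries share 1 line, and each group rests on 2 libraries. Over the 12 alternatives the log2 fold change kept its sign for 8 members and changed it for Tnc, without Dox replicate 1 (-0.11). Fabp7 ranged from -3.68 to -2.89, Nes from -1.17 to -1.04, Vim from -0.98 to -0.95, Hopx from 0.66 to 1.80 and Ptprz1 from 0.95 to 1.53. In each alternative that kept all 4 libraries, 3 members met the call rule downwards. Upwards it was 1 member when the filter was dropped. It was also 1 when the filter was raised to 5 FPKM, where Hopx was not tested. Nothing is read from these counts, since the members were chosen with this contrast in view. Dropping the filter gave 336 genes higher and 409 lower out of 27532, with 3 of the other radial glia genes rising, and raising it gave 408 and 413 out of 10342. Leaving out a library gave 262 to 320 genes higher and 331 to 377 lower. In those fits fewer of the other radial glia genes rose, and fewer fell. Their median ranged from -0.29 to -0.15, and the median of the 9 members ranged from -0.11 to 0.11. A fit with a replicate block had 532 genes higher and 602 lower, the same counts of members (2 and 3), and 5 and 10 of the other radial glia genes. Same-numbered libraries had a correlation of -0.043 between their deviations over all tested genes. This single value cannot tell whether they shared a culture or a batch. No alternative turned the direction of a called gene named by the rule. Calls were lost in 41 fits of such genes outside the members and gained in 2. The losses leave out called genes that the filter of 5 FPKM removed from testing.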
